A study of Mus musculus with 15 samples.

Results

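The kidneys of mice held on restricted water for 4 weeks were compared with those of mice of the same age that drank freely. The comparison rested on 7 of the 15 arrays of the series, the 4 arrays of the RES 4W group and the 3 arrays of the CON 4W group. All read total RNA from kidneys of male C57BL/6 mice that entered the experiment at weaning, at 3 weeks of age, and were killed at 7 weeks of age. RES 4W mice could drink during 15 min of each day, CON 4W mice had water ad libitum, and both groups were offered the purified AIN-93G diet freely. The restricted mice were killed a day after their last access to water, so the RES 4W arrays also read that day without water. The study reports that restricted mice ate less at the start and later caught up. The part of either in the results was not tested. The other 8 arrays came from mice killed at 4 weeks of age after 1 week of the same regimens (CON 1W and RES 1W). They entered the fit to estimate the spread between arrays, and they are quoted where a difference between the ages was tested. The groups share sex and strain, so the values describe young males of 1 inbred strain, in whole organ RNA. The labels list more animals than arrays in each group and do not say whether an array read 1 animal or a pool, so p-values measure only the spread between these arrays, which may be partly technical.

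Mammalian kidneys save water through vasopressin, which acts on the principal cells of the collecting duct, raises cyclic AMP and brings the water channel Aqp2 to the luminal membrane. Cells of the salty inner kidney balance the osmotic load around them by taking up or making organic osmolytes such as betaine, myo-inositol and sorbitol, largely under the transcription factor Nfat5. Proximal tubules recover most of the filtered solute and burn fatty acids at a high rate, under the nuclear receptor Ppara among others.

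Slc6a12, which encodes the betaine transporter that cells of the hypertonic medulla use to gather osmolyte, and Aqp2 were the clearest water-balance genes of the comparison. Their upstream sequences are shown because a short motif tied to Nfat5 or to cyclic AMP can be read in them. The 250 bases before the RefSeq start follow, from build GRCm38.p6, plus strand, at chr6:121342324-121342573 for Slc6a12 and chr15:99578806-99579055 for Aqp2. Capitals mark TGGAAA, the shared core of Nfat5 binding sites, in Slc6a12, and ACGTCA, the reverse complement of the TGACGT of cyclic AMP response elements, in Aqp2.
Slc6a12: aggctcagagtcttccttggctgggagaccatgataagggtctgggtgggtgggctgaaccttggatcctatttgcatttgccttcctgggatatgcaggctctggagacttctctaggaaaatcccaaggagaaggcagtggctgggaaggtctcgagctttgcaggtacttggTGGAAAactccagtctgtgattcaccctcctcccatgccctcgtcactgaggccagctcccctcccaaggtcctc
Aqp2: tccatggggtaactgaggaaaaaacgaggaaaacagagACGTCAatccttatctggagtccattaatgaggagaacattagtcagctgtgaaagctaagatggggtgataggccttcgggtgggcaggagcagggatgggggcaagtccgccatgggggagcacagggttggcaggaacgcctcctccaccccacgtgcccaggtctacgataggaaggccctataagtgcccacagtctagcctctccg
TGGAAA, on either strand, was held by 18.6% of the 32851 RefSeq upstream windows of 250 bases, and by 1 of the 5 windows listed for Slc6a12. TGACGT, on either strand, was held by 6.47% of the windows, and by the single window listed for Aqp2. The matches begin 75 bases before the start in Slc6a12 and 212 bases before it in Aqp2. They describe letters only, and binding was not measured.

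Of 45281 probes on the array, 19027 were detected, at p under 0.05, on 3 or more of the 15 arrays, and these were tested. They read 10838 named genes, each represented by its brightest tested probe. Levels are log2 of normalized intensity, and changes are RES 4W minus CON 4W on that scale with the standard error of the fit. RES 4W replicate 1 stood apart from its group. Its levels correlated with the CON 4W arrays at a mean r of 0.988 over the tested probes and with the other RES 4W arrays at 0.978, whereas replicates 2 to 4 correlated with each other at 0.994 to 0.995. It had 15295 detected probes, against 17168 to 17433 in replicates 2 to 4 and 15806 to 16690 in CON 4W. In the deposited table RES 4W replicates 2 to 4 fill columns 7 to 9, and replicate 1 fills column 15, after the CON 4W arrays in columns 12 to 14. What this order stands for is not stated, and its part in the results was not tested. Whether the label of replicate 1 holds cannot be told from these files, and every value given with all arrays takes the label as it stands. Results are therefore given with all 4 RES 4W arrays and, where the values differ, without replicate 1. Replicate 1 is said to agree where it lay beyond all 3 CON 4W arrays on the side of replicates 2 to 4.

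With all arrays, 1235 of 19027 probes passed an adjusted p of 0.05 (6.49%), 690 of them higher (3.63%) and 545 lower (2.86%) in RES 4W. Without replicate 1 the count was 4576 (24.1%), with 2434 higher (12.8%) and 2142 lower (11.3%). The count fell to 165, 184 or 198 without RES 4W replicate 4, 2 or 3 and to 346, 429 or 285 without CON 4W replicate 1, 2 or 3. It was 3 when the 7 arrays were fitted alone and 0 in the methods' t-test, with 3961 and 2994 probes at an unadjusted p under 0.05. All 1235 probes were among the 4576, and 0 changed sign. At an adjusted p under 0.01 and a fold over 1.5, 70 probes passed with all arrays (0.368%) and 1954 without replicate 1 (10.3%). Read as genes, 291 were higher (2.68%) and 341 lower (3.15%) with all arrays, against 1052 higher (9.71%) and 1274 lower (11.8%) without replicate 1, and these shares are the background of the list counts that follow. The RES 4W and CON 4W arrays did not overlap at 2794 probes (14.7% of those tested), 908 of which were among the 1235. Of the 1235 probes, replicate 1 lay on the side of replicates 2 to 4 in 914 (74.0%), lay within the CON 4W range in 307 (24.9%) and lay beyond it on the other side in 14. The fit that called these probes held replicate 1. Of the 4576 probes called without it, it agreed in 1542 (33.7%), lay within CON 4W in 2126 (46.5%) and lay on the other side in 908. Replicate 1 agreed in 30.8% of all tested probes and lay within CON 4W in 48.2%, near the shares of the 4576. The median of its shift from the CON 4W mean, as a percent of the shift of replicates 2 to 4, was 37.7% over the 1235 probes and 7.29% over the 4576.

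**Figure D1:**
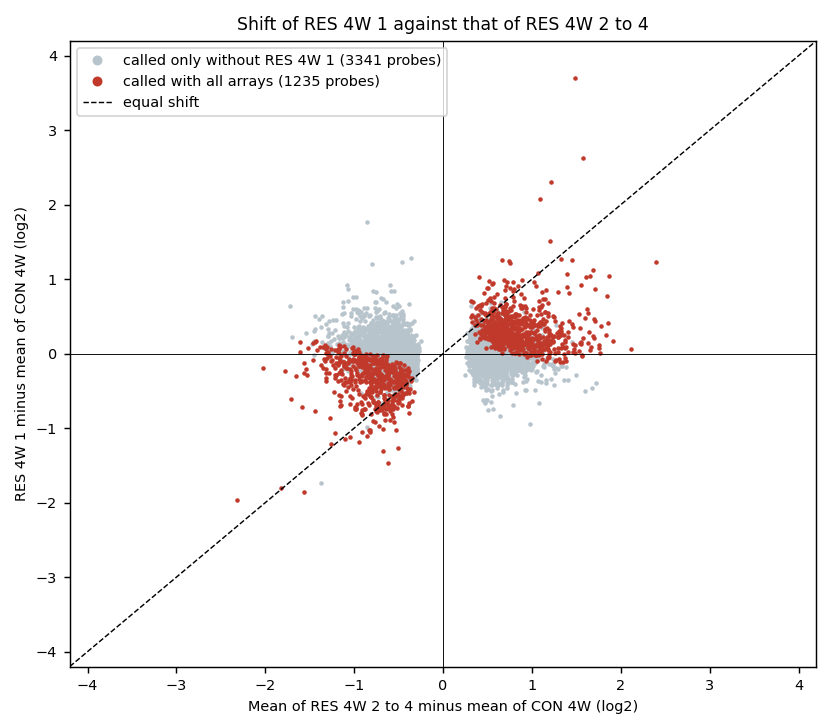
Each point is a probe called in RES 4W against CON 4W, with the mean shift of RES 4W replicates 2 to 4 from the CON 4W mean on the x axis and the shift of replicate 1 on the y axis, both in log2 units. The 1235 probes called with all arrays (red) mostly lie between the zero line and the dashed line of equal shift, and the 3341 called only without replicate 1 (grey) scatter about zero on the y axis.

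A smaller set kept its call whichever array was left out. In 15 fits that each left out 1 of the 15 arrays, 129 probes passed in every fit, and they included the brightest probe of 67 genes, 40 higher and 27 lower. Replicate 1 agreed in all 67, and reached 50% or more of their shift in 53. All but 1 of the 15 fits held replicate 1, so the selection itself favoured genes in which it agreed. Its agreement in the 67 is therefore not independent evidence. Of 117 named genes called with all arrays, 39 passed in all 15 fits. Some of the 39 were named after they were seen to pass, so 39 of 117 does not measure how firm named genes are. The smallest adjusted p among the 39 belonged to Slc6a12, Car15, Acnat2, Fst and Aqp2.

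Slc6a12 rose by the same amount in all 4 arrays. Its log2 level was 7.45, 7.25 and 7.12 in CON 4W replicates 1 to 3 and 8.55, 8.63, 8.57 and 8.62 in RES 4W replicates 1 to 4. The groups did not overlap, and replicate 1 made 95.6% of the shift of the others. The rise was 2.49-fold, a log2 change of 1.32 ± 0.12 (SE, n = 4 against 3, adjusted p = 0.000123 in limma), and 1.33 ± 0.13 without replicate 1. The two-sided exact permutation test over the 7 arrays gave p = 0.029, the smallest that 4 against 3 arrays allow. Slc6a12 has no other tested probe.

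Aqp2 gave the largest log2 rise of all 10838 genes. CON 4W arrays measured 8.28, 8.25 and 8.42, and RES 4W arrays 9.55, 10.98, 10.64 and 10.53. All 4 restricted arrays were above every control, with replicate 1 at 51.3% of the shift of the others. The rise was 4.31-fold (log2 2.11 ± 0.25, adjusted p = 0.000703) with all arrays and 5.27-fold without replicate 1. The other tested probe of Aqp2 rose by 1.01 ± 0.11, from controls of 8.28 to 8.55 to restricted values of 9.31 to 9.64, again in all 4 arrays. In whole kidney RNA, more cells of a type and more RNA per cell cannot be told apart. The summed level of the 8 principal cell markers, Aqp2 among them, was 11.87 to 12.08 in CON 4W, 12.10 in replicate 1 and 12.32 to 12.61 in the others. As Aqp2 is part of the sum, its own rise lifts the sum. The median change of the 8 markers was 0.049, and Aqp2 was the only one called.

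Of 8 tested water channel genes Aqp2 alone was called with all arrays, and the list median was 0.15, against -0.02 over all genes. Aqp3, the basolateral channel of the same cells, measured 8.88, 9.16 and 9.13 against 9.43, 9.30, 9.23 and 9.25. The arrays did not overlap, but the difference of 0.25 ± 0.10 did not pass (adjusted p = 0.127). Aqp1, the constitutive channel of the proximal tubule, was not called with all arrays (-0.28 ± 0.13) and was lower without replicate 1 (-0.37 ± 0.12, adjusted p = 0.0314), while its other probes differed by 0.12 and 0.14. Avpr2, the vasopressin receptor of the collecting duct, differed by 0.45 ± 0.17 (adjusted p = 0.11). Adcy6, an adenylyl cyclase that couples to this receptor, rose by 0.49 ± 0.13 (adjusted p = 0.0398), with replicates 2 to 4 at 9.53 to 9.64 and replicate 1, at 9.01, within the CON 4W range of 8.79 to 9.06. Adcy6 was the only 1 of 12 tested genes of vasopressin signalling and urea transport to pass.

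Of 8 tested osmolyte and Nfat5 target genes Slc6a12 alone was called, and without replicate 1 the sodium-coupled amino acid transporter Slc38a2 also passed. The myo-inositol transporter Slc5a3 and the aldose reductase Akr1b3 were not detected in enough arrays to be tested. Cryab, a small heat shock protein abundant in the inner medulla, rose 1.71-fold (log2 0.77 ± 0.16, adjusted p = 0.016), from 10.05 to 10.25 in CON 4W to 10.70 in replicate 1 and 11.01 to 11.08 in the others. Rnf183, a ubiquitin ligase of the renal medulla, rose by 0.95 ± 0.18 (adjusted p = 0.0115), from 5.96 to 6.31 to 6.58 in replicate 1 and 7.22 to 7.39 in the others, and its other probe rose by 0.96. All 4 arrays lay above the controls in both genes.

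**Figure D2:**
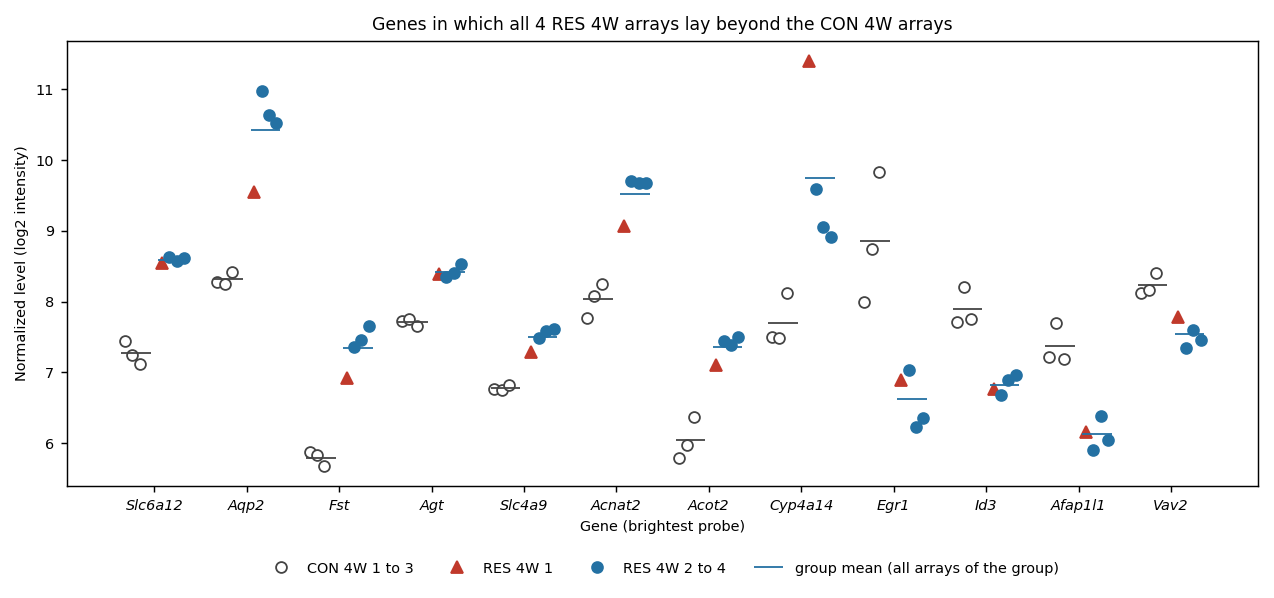
Normalized level (log2 intensity, y axis) of 12 genes in each CON 4W array (open circles), RES 4W replicate 1 (red triangles) and RES 4W replicates 2 to 4 (blue circles), with group means as lines. In all 12 genes the 4 RES 4W arrays lie outside the range of the CON 4W arrays, closely together in Slc6a12 (8.55 to 8.63) and far apart in Cyp4a14 (8.91 to 11.40).

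Agt, the precursor of angiotensin, measured 7.73, 7.76 and 7.66 in CON 4W and 8.39, 8.35, 8.40 and 8.53 in RES 4W. It rose 1.62-fold (log2 0.70 ± 0.11, adjusted p = 0.00625) and was the only 1 of 6 tested renin-angiotensin genes to pass, Ren1 not being tested. Prcp, a carboxypeptidase that cleaves angiotensin peptides, fell by 0.50 ± 0.09 (adjusted p = 0.00975), with RES 4W at 10.40 to 10.47 and every CON 4W array at 10.80 or above, while its other, dim probe differed by 0.09. Slc4a9, an anion exchanger family member of intercalated cells, rose 1.64-fold (log2 0.71 ± 0.11, adjusted p = 0.00475), from 6.75 to 6.82 to 7.29 to 7.62. Car15, a membrane-bound carbonic anhydrase, measured 9.96, 9.66 and 9.68 in CON 4W and 10.60, 11.11, 11.06 and 11.01 in RES 4W. It rose 2.26-fold (log2 1.18 ± 0.13, adjusted p = 0.000544), and replicate 1 made 64.2% of the shift. Slc26a6, which exchanges oxalate and chloride in the proximal tubule, fell by 0.90 ± 0.17 (adjusted p = 0.013), from 7.39 to 7.85 to 6.35 to 6.98.

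None of 16 tested genes of distal sodium reabsorption was called with all arrays, against 2.68% of all genes higher and 3.15% lower, and 3 were lower without replicate 1 (18.8%, Klhl3, Kcnj16 and Prss8), with replicate 1 on their side in 0 of the 3. Of 14 tested genes of calcium and phosphate handling, the magnesium channel Trpm6 rose by 0.49 ± 0.12, and the sodium-calcium exchanger Slc8a1 (-0.52 ± 0.15) and klotho (Kl, -0.44 ± 0.12) fell, each with all 4 RES 4W arrays outside the CON 4W range. Of the 15 fits that left out 1 array, Trpm6 passed in 10, Kl in 7 and Slc8a1 in 3. The summed level of 5 tested of 7 markers of the distal convoluted and connecting tubule, Trpm6 among them, was 13.57 to 13.66 in CON 4W, 13.53 in replicate 1 and 13.32 to 13.41 in the others, and its part in these changes was not tested. The other probe of Slc8a1 fell as well (-0.75), while those of Trpm6 and Kl differed by 0.04 and -0.36. Of 12 acid-base transport genes the carbonic anhydrase Car14 rose by 0.55 ± 0.13, with its other probe at 0.43.

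Fuel genes gave the highest share of rises among the 45 pathway lists. Of 17 tested genes of the fasting response and Ppara targets, 5 rose (29.4%, against 2.68% of all genes) and 1 fell. The 5 were Cyp4a14, Pdk4, Acot2, Angptl4 and Slc25a20, and replicate 1 agreed in each. The list median was 0.19. Ppara itself differed by -0.09 ± 0.17.

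Cyp4a14, a fatty acid hydroxylase, measured 7.50, 7.49 and 8.12 in CON 4W and 11.40, 9.59, 9.06 and 8.91 in RES 4W. Here replicate 1 was the highest array, at 250% of the shift of the others. The log2 change was 2.04 ± 0.44 (adjusted p = 0.0199) with all arrays and 1.48 ± 0.27 without replicate 1. Pdk4, the kinase that keeps glucose carbon out of the citrate cycle, measured 8.55, 7.52 and 7.93 against 10.31, 10.18, 8.78 and 8.69. The RES 4W arrays fell into a high pair and a low pair, the low pair just above the highest control, and the change was 1.49 ± 0.38 (adjusted p = 0.0343). Angptl4, an inhibitor of lipoprotein lipase, rose by 0.65 ± 0.16 (adjusted p = 0.0334), from 11.28 to 11.66 to 11.93 to 12.43. Slc25a20, the mitochondrial carnitine carrier, rose by 0.38 ± 0.11 (adjusted p = 0.0499), and its other probe by 1.37, but the brighter probe passed in only 2 of the 15 fits that left out 1 array.

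Acot2, a mitochondrial acyl-CoA thioesterase, went from 5.79, 5.97 and 6.37 to 7.11, 7.44, 7.39 and 7.50 (log2 1.32 ± 0.18, adjusted p = 0.00288), although its other probe, at 4.97 to 5.41, differed by 0.08. Acot1 and Acot3 are near copies, and probe signal may be shared among them. Acot3 rose by 0.83 ± 0.15 (adjusted p = 0.0112), whereas the brighter Acot1 probe differed by 0.49 ± 0.19 (adjusted p = 0.117) and the other rose by 1.40 ± 0.19. Acnat2, a peroxisomal acyltransferase, measured 7.77, 8.08 and 8.25 in CON 4W and 9.07, 9.70, 9.67 and 9.67 in RES 4W. It rose 2.82-fold (log2 1.49 ± 0.17, adjusted p = 0.000544), with replicate 1 at 63.0% of the shift. The member of the Ppara list that fell, Hadhb, a subunit of the mitochondrial beta-oxidation complex, behaved differently. It measured 7.69, 7.81 and 7.83 in CON 4W and 7.84 in replicate 1, against 6.60, 6.46 and 6.49 in replicates 2 to 4.

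Fst and the Id genes moved in all 4 arrays. Fst, follistatin, the secreted binder of activin, measured 5.87, 5.84 and 5.68 in CON 4W and 6.92, 7.36, 7.46 and 7.65 in RES 4W, a 2.93-fold rise (log2 1.55 ± 0.17, adjusted p = 0.000544). Id proteins hold back basic helix-loop-helix transcription factors and are targets of BMP signalling. Id3 went from 7.71, 8.21 and 7.76 to 6.77, 6.68, 6.90 and 6.97, a change of -1.06 ± 0.15 (adjusted p = 0.00387). Id1 went from 8.56, 9.19 and 9.28 to 7.83, 8.17, 7.99 and 8.03 (-1.01 ± 0.16, adjusted p = 0.00752). Id2 went from 10.23, 9.75 and 9.92 to 9.27, 9.09, 9.13 and 9.43 (-0.74 ± 0.18, adjusted p = 0.0299), with a change of -1.43 at the other probe of the gene. Replicate 1 made 92.8% of the shift of the others in Id2, 108% in Id3 and 124% in Id1. The other 11 tested genes of the activin, BMP and Id list were not called with all arrays, Bmp4 (0.19 ± 0.11) and Bmp7 (0.16 ± 0.10) among them. Without replicate 1, 2 genes of the list were higher (13.3%, against 9.71% of all genes) and 5 lower (33.3%, against 11.8%). Among these, replicate 1 agreed in 4 and lay within CON 4W in 3.

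Immediate early genes respond to growth factors and stress within minutes. Egr1 gave the largest fall of all genes, from 8.00, 8.75 and 9.83 to 6.90, 7.03, 6.23 and 6.35. The groups did not overlap, but the controls were themselves far apart. The fall was 4.7-fold (log2 -2.23 ± 0.38, adjusted p = 0.00973). Fos went from 5.14, 5.10 and 6.10 to 4.70, 4.54, 4.45 and 4.40, and was at least 1.54-fold lower (adjusted p = 0.0245), a bound because it was not above background in RES 4W. Of the 15 tested genes of this list Egr1 and Fos were called with all arrays, and Fosl2 and Jund were lower as well without replicate 1. Replicate 1 agreed in all 4, none of the list rose, and the list median was -0.17.

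Among 16 glucocorticoid-responsive genes 4 rose (25.0%, against 2.68% of all genes) and 1 fell (6.25%, against 3.15%). Beside Pdk4 and Angptl4 the rises were Lcn2, a secreted siderophore binder, and Zbtb16, a zinc finger repressor, which was at least 1.57-fold higher as it was not above background in CON 4W. Ddit4, a stress-induced brake on mTORC1, fell by 0.83 ± 0.21. Commonly used reporters did not pass, with Fkbp5 at 0.04 ± 0.21, Tsc22d3 at -0.25 ± 0.21 and Per1 at 0.28 ± 0.23. Lcn2, which is also a marker of tubular injury, measured 5.83, 5.83 and 5.76 in CON 4W and 6.60, 6.38, 6.76 and 6.90 in RES 4W (0.86 ± 0.18, adjusted p = 0.0187). It was the only 1 of 15 tested injury markers called with all arrays (6.67% higher, against 2.68% of all genes), whereas 3 were higher and 3 lower without replicate 1 (20% each, against 9.71% and 11.8%).

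Afap1l1, an actin-associated protein, measured 7.22, 7.70 and 7.19 against 6.16, 5.91, 6.39 and 6.05, a change of -1.25 ± 0.18 (adjusted p = 0.00373). Esm1, a proteoglycan secreted by endothelial cells, went from 10.12, 10.38 and 9.95 to 9.44, 8.74, 9.23 and 8.99 (adjusted p = 0.00628). Both fell in all 4 arrays, whereas 2 of 12 tested endothelial markers rose, Tie1 (0.82 ± 0.15) and Pecam1 (0.55 ± 0.13), and none fell with all arrays, against 3 higher and 1 lower without replicate 1. The other probe of Pecam1 differed by -0.25. The summed level of the 12 markers was 13.27 to 13.34 in CON 4W, 13.42 in replicate 1 and 13.42 to 13.50 in the others.

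Of 17 tested genes of the interstitial matrix 2 rose (11.8%, against 2.68% of all genes) and none fell, with a list median of 0.28. Without replicate 1, 5 rose (29.4%, against 9.71% of all genes) and none fell. Fn1, fibronectin, went from 4.92, 5.54 and 5.61 to 6.31, 6.00, 6.08 and 6.14 (0.78 ± 0.19, adjusted p = 0.0269). Col6a1, a chain of type VI collagen, rose by 0.70 ± 0.16 (adjusted p = 0.0237), with its other probe at 0.49. The summed level of 9 tested fibroblast and pericyte markers was 11.92 to 12.07 in CON 4W, 11.90 in replicate 1 and 12.17 to 12.34 in the others. Acta2, at 11.19 to 11.45 in CON 4W and 11.49 to 11.75 in replicates 2 to 4, is part of the sum and lifts it. The median change of the 9 markers was 0.085 with all arrays and -0.015 without replicate 1. Acta2 was the only one called, and only without replicate 1. The part of these marker levels in the results was not tested. The transcription factor Irx1 rose by 1.40 ± 0.27 (adjusted p = 0.013), from 5.56 to 5.63 to 6.51, 7.64, 6.76 and 7.04. Further falls in all 4 arrays were Oasl2, an interferon-induced gene (-1.03 ± 0.18), and Cc2d2a, a protein of the ciliary transition zone (-1.03 ± 0.16). Oasl2 was detected in only 1 of the 4 RES 4W arrays, so the size of its fall is uncertain. Its other probe was not called (-0.32, adjusted p = 0.164).

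Of 17 tested genes of proximal glucose and amino acid transport 2 rose (11.8%, against 2.68% of all genes) and 3 fell (17.6%, against 3.15%), and 2 rose and 5 fell without replicate 1. Slc5a2, the glucose transporter SGLT2, measured 8.94, 9.06 and 8.89 in CON 4W, 9.43 in replicate 1 and 10.06, 9.98 and 10.22 in the others (0.96 ± 0.17, adjusted p = 0.00973). Slc7a7, a basolateral transporter of cationic amino acids, rose by 0.79 ± 0.16 (adjusted p = 0.0153), and its other probes rose by 1.35 and 0.85. Slc5a8 (-0.46 ± 0.11), Slc6a20b (-0.77 ± 0.18) and Slc5a10 (-0.66 ± 0.17) fell, with replicate 1 at 53.2%, 9.13% and 5.17% of the shift of the others. The summed level of the 13 tested proximal tubule markers was 16.74 to 16.88 in CON 4W, 16.78 in replicate 1 and 16.68 to 16.70 in the others.

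Among 17 cytochrome P450 genes 2 rose, Cyp4a14 and Cyp2d26 (1.18 ± 0.20), and 3 fell, Cyp2a4, Cyp2a5 and Cyp2j13. The shares were 11.8% higher and 17.6% lower, against 2.68% and 3.15% of all genes. Without replicate 1, 3 rose (17.6%, against 9.71%) and 5 fell (29.4%, against 11.8%). The other probes of Cyp2d26 differed by 1.08 and 0.19. Cyp2a5 changed by -0.60 ± 0.16 at its brightest probe, and of its 4 other probes 1 fell (-0.63) and the rest differed by 0.05, -0.14 and -0.35. Cyp2a4 went from 7.16, 7.01 and 7.90 to 6.64, 5.54, 5.82 and 5.96 (-1.37 ± 0.26, adjusted p = 0.0115), and Cyp2a4 and Cyp2a5 are near copies that may share probe signal. Of 9 tested androgen-regulated kidney genes 2 fell (22.2%, against 3.15% of all genes) and none rose. The falls were Odc1, the first enzyme of polyamine synthesis (-0.94 ± 0.17), and Cyp2j13 (-0.46 ± 0.12). Without replicate 1, 5 were lower (55.6%, against 11.8%). Kap, the kidney androgen-regulated protein, was at 12.94 in replicate 1, within the CON 4W range of 12.82 to 13.23, and at 12.16 to 12.35 in replicates 2 to 4.

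Genes of cell junctions, adhesion and the cytoskeleton, which the study examined for 4 weeks of restriction, were split by replicate 1. Of 14 such genes 12 were tested, 6 fell and none rose with all arrays, and 8 fell and 1 rose without replicate 1. Among the 9 called without it, replicate 1 agreed in 3, lay within CON 4W in 5 and lay on the other side in 1. The study picked these genes from the same samples, so they are not independent evidence of a direction.

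Ctnnb1, beta-catenin, measured 8.92, 8.67 and 8.92 in CON 4W and 8.93 in RES 4W replicate 1, against 7.57, 7.44 and 7.45 in replicates 2 to 4. The change was -0.99 ± 0.26 (adjusted p = 0.038) with all arrays and -1.35 ± 0.12 without replicate 1. Of its other probes, 1 had replicates 2 to 4 at 6.01 to 6.65 and the other 4 arrays at 7.63 to 7.97 (-0.89 ± 0.30, adjusted p = 0.0819), and the remaining pair differed by -0.07 and -0.04. Cdh1, E-cadherin, was at 8.01 in replicate 1, within the CON 4W range of 7.97 to 8.25, and at 6.87, 7.11 and 7.21 in the others (-0.84 ± 0.23, adjusted p = 0.0411). Its other probe differed by -0.66 with the same split of the arrays.

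Vav2 was the one called gene of this set in which replicate 1 made over 50% of the shift. Vav2, a guanine nucleotide exchange factor, measured 8.12, 8.16 and 8.41 in CON 4W and 7.79, 7.34, 7.60 and 7.46 in RES 4W (-0.68 ± 0.12, adjusted p = 0.0106). Actr3, a subunit of the actin-nucleating Arp2/3 complex, fell by 0.94 ± 0.19 (adjusted p = 0.016), with 7.40 in replicate 1 just below the CON 4W range of 7.50 to 7.82 and 6.34 to 6.58 in the others. The integrin Itgb5 (-0.71 ± 0.20, adjusted p = 0.0495) and the early endosome GTPase Rab5c (-0.65 ± 0.18, adjusted p = 0.04) fell with replicate 1 within the CON 4W range. Itgb5 passed in 1 and Rab5c in 4 of the 15 fits that left out 1 array.

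The actin crosslinker Actn4 (0.64 ± 0.22) and the clathrin heavy chain Cltc (-0.41 ± 0.15) passed only without replicate 1, although both other probes of Actn4 rose with all arrays (0.90 and 1.20). Nectin1 also passed only without replicate 1, and as it was detected in 2 CON 4W and 0 RES 4W arrays, it can only be given as at least 1.09-fold lower. Col4a4 (-0.22 ± 0.13), Itgb6 (0.12 ± 0.17) and Iqgap1 (0.02 ± 0.12) passed in neither fit by their brightest probes. A dimmer probe of Itgb6 gave -0.69 with all arrays (adjusted p = 0.0827) and passed without replicate 1 (-0.99), and its remaining probe gave 0.22. The other probe of Iqgap1 gave -0.54 (adjusted p = 0.12) and passed without replicate 1 (-0.76, adjusted p = 0.0034). A dimmer probe of Col4a4, a chain of basement membrane collagen, fell in all 4 arrays from 7.16 to 7.57 to 6.64 to 6.86 (-0.60 ± 0.13, adjusted p = 0.0197). Picalm was not tested. In the wider lists, 3 of 20 adherens junction genes fell (15.0%, against 3.15% of all genes) and none rose, and without replicate 1, 6 fell (30%, against 11.8%) and 1 rose. Of 13 tight junction genes Tjp3 and Cldn15 rose (15.4%, against 2.68% of all genes), with replicate 1 agreeing in both, and without it 3 rose and 1 fell. Tjp3 passed in 3 and Cldn15 in 10 of the 15 fits that left out 1 array. The other probe of Cldn15 rose by 0.78. That of Tjp3 gave 0.54 (adjusted p = 0.128), with replicate 1 at 4.61, below the CON 4W range of 4.82 to 4.92, and passed only without replicate 1 (0.81). Of 18 basement membrane genes the laminin Lamb2 alone was called with all arrays (0.48 ± 0.12), and 3 rose without replicate 1 (16.7%, against 9.71% of all genes).

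**Figure D3:**
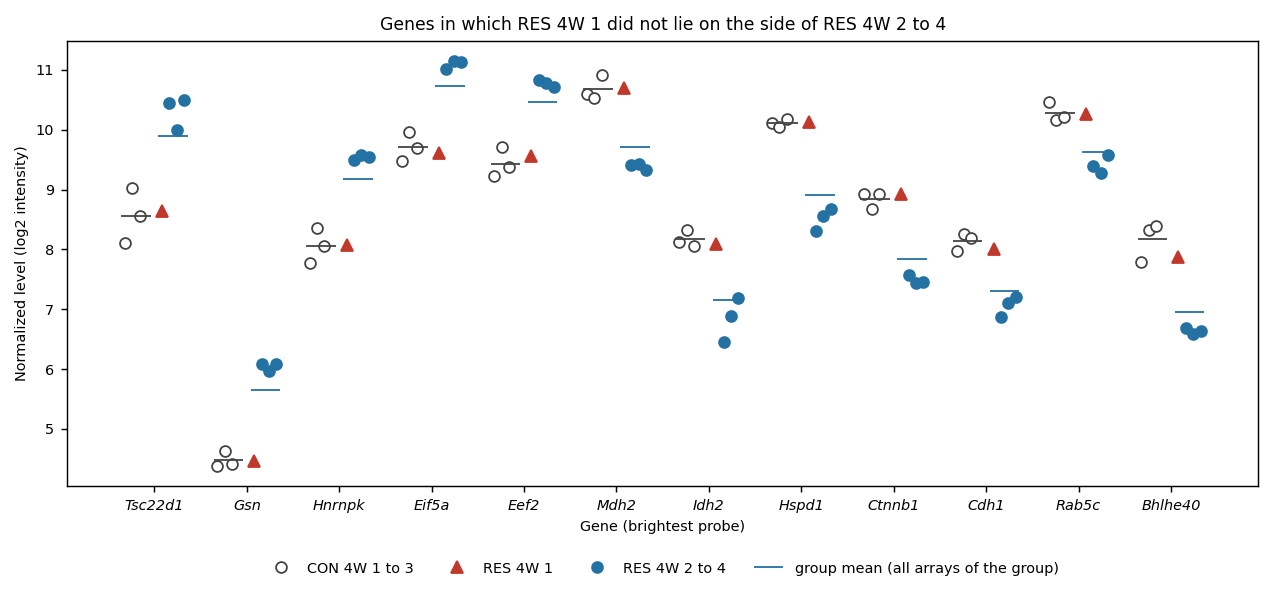
Normalized level (log2 intensity, y axis) of 12 genes in each CON 4W array (open circles), RES 4W replicate 1 (red triangles) and RES 4W replicates 2 to 4 (blue circles), with group means as lines. Replicate 1 lies within or at the edge of the CON 4W range in every gene shown, as for Ctnnb1 (8.93 against 8.67 to 8.92), and replicates 2 to 4 lie together away from it.

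The 8 largest rises and 8 largest falls of replicates 2 to 4 among genes whose replicate 1 lay within CON 4W are given as a description, since replicate 1 chose them. Hspd1, a mitochondrial chaperonin, measured 10.11, 10.05 and 10.18 in CON 4W, 10.13 in replicate 1 and 8.30, 8.55 and 8.67 in the others, while its other probe rose by 0.78, with 8.84 to 8.95 in replicates 2 to 4 and 7.74 to 8.15 in the other 4 arrays. The probes of Hspd1 thus moved in opposite directions in the same arrays. Gsn, the actin-severing protein gelsolin, was at 4.38 to 4.63 in CON 4W, at 4.46 in replicate 1 and at 5.97 to 6.08 in the others, at least 1.7-fold higher in RES 4W. Eif5a, a translation factor, was at 9.61 in replicate 1, within 9.48 to 9.96 of CON 4W, and at 11.01 to 11.15 in the others, and its other probes differed by 1.02 and 0.08. Tsc22d1, Rbbp7, Hnrnpk, Golga7, Chp1 and Ctsa completed the rises, at 1.38 to 1.75 without replicate 1. Sppl2a, Zfp871, Bhlhe40, Chst7, Ptpre, Slc37a4 and Sgip1 completed the falls, at -1.45 to -1.70. Their other probes did not all move with them. Without replicate 1 these gave 1.40, 1.37 and -0.09 in Rbbp7, -0.14 and 0.57 in Hnrnpk and -0.12 in Golga7. They gave 0.60, -0.04 and 0.67 in Ctsa, -0.66 in Ptpre and 0.14 in Sgip1. The rest have no other tested probe.

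RNA splicing factors were the pathway list with the most rises. Of 25 tested, 6 rose (24.0%) and none fell with all arrays, namely Ddx5, Hnrnpk, Hnrnpa2b1, Son, Pnisr and Hnrnph1, and the list median was 0.17. Without replicate 1, 9 rose (36%) and 2 fell (8.0%, against 11.8% of all genes), with replicate 1 on their side in 6 of the 11. Ddx5, an RNA helicase, measured 5.33, 5.49 and 5.46 in CON 4W, 5.59 in replicate 1 and 7.32, 7.34 and 7.33 in the others (1.47 ± 0.32, adjusted p = 0.0207), so that replicate 1 agreed at only 8.72% of the shift. Hnrnpk was at 8.08 in replicate 1, within 7.77 to 8.36 of CON 4W, and at 9.50 to 9.58 in the others, and its other probes differed by -0.20 and 0.48. Replicate 1 shared most of the change in Son (0.68 ± 0.14), at 61.5%. Hnrnph1 rose by 0.47 ± 0.11, and its other 4 probes differed by 0.48 to 0.66. Khdrbs1, an RNA binding protein outside the list, was not called by its brightest probe (0.20 ± 0.16), while its other probe rose from 6.31 to 6.51 to 7.36 to 7.49 in all 4 arrays (1.00 ± 0.12).

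Of 15 tested translation factors Eif5a and Eef2 rose with all arrays (13.3%, against 2.68% of all genes), and without replicate 1 the counts were 5 higher and 3 lower, with replicate 1 on their side in 0 of the 8. Over all genes it was on that side in 855 of 2326. Eef2, elongation factor 2, was at 9.22 to 9.71 in CON 4W, 9.56 in replicate 1 and 10.71 to 10.83 in the others, and its other probes rose by 0.83 and 0.98. Of 20 mitochondrial carriers and citrate cycle enzymes 3 fell (15.0%, against 3.15% of all genes), Cs (-0.46 ± 0.11), Idh2 (-1.02 ± 0.27) and Mdh2 (-0.97 ± 0.26), beside the rise of Slc25a20. Without replicate 1, 7 fell (35%, against 11.8%) and 1 rose, with replicate 1 on their side in 4 of the 8. Mdh2 measured 10.59, 10.53 and 10.92 in CON 4W, 10.70 in replicate 1 and 9.41, 9.42 and 9.33 in the others. Atp6v1a, a subunit of the vacuolar proton pump, measured 8.49, 8.50 and 8.53 in CON 4W, then 8.39 in replicate 1 and 6.82, 7.11 and 6.91 in the others (-1.20 ± 0.27, adjusted p = 0.0218). Of 36 oxidative phosphorylation subunits 4 rose with all arrays (11.1%, against 2.68% of all genes) and none fell. Without replicate 1, 4 rose (11.1%, against 9.71%) and 5 fell (13.9%, against 11.8%), near the shares of all genes. Replicate 1 was on their side in 3 of the 9. The heat shock list of 13 held 1 rise (Cryab, 7.69%, against 2.68% of all genes) and 1 fall (Hspd1, 7.69%, against 3.15%). Without replicate 1 it held 2 rises (15.4%, against 9.71%) and 5 falls (38.5%, against 11.8%).

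**Figure D4:**
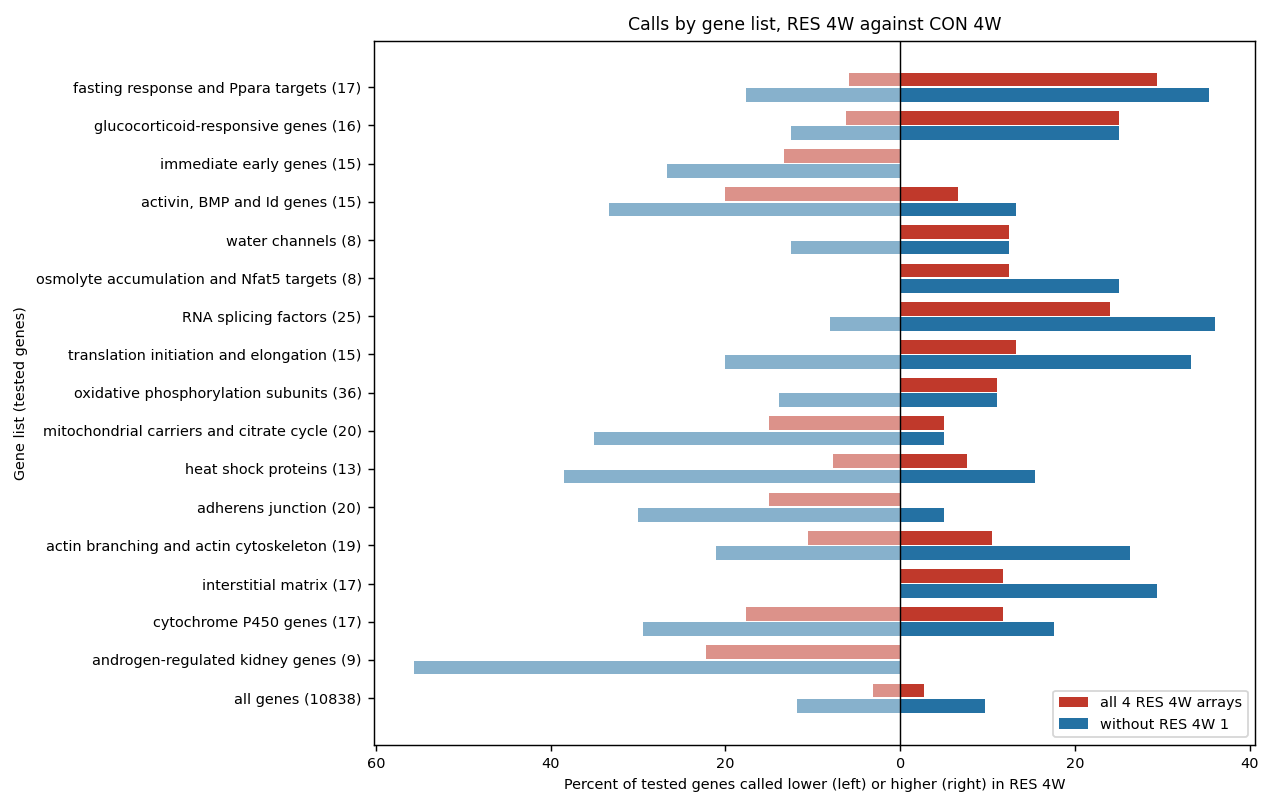
Bars give the percent of tested genes (number in brackets) of 16 lists, and of all genes, called lower (left, pale) or higher (right, dark) in RES 4W against CON 4W, with all arrays in red and without RES 4W replicate 1 in blue. Fasting and Ppara targets reach 29.4% higher with all arrays against 2.68% of all genes, and without replicate 1 the share over all genes is 9.71% higher and 11.8% lower.

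Probes of the same gene often disagreed in sign. Of 632 genes called with all arrays, 222 had other tested probes, and in 141 of these (63.5%) all other probes had the sign of the brightest. In 9 (4.05%) another probe was itself called in the opposite direction. Without replicate 1, 863 of 2326 called genes had other probes, all of the same sign in 444 (51.4%), and another was called in the opposite direction in 131 (15.2%). For comparison, RES 1W against CON 1W called 369 genes (3.4% of 10838), of which 115 had other probes, all of the same sign in 100 (87.0%), with 0 called in the opposite direction. The difference between these shares was not tested. Among genes called with all arrays in which replicate 1 made 50% or more of the shift, all other probes had the same sign in 57 of 87 (65.5%), and among the rest in 84 of 135 (62.2%).

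**Figure D5:**
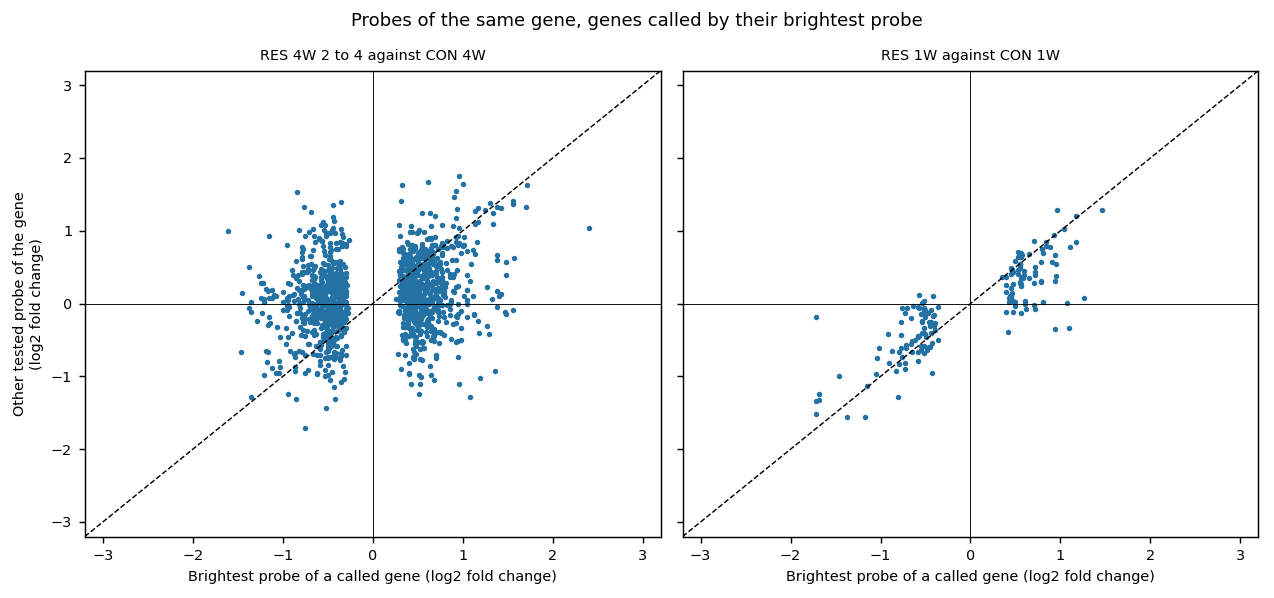
For genes called by their brightest probe, the log2 fold change of that probe (x axis) is plotted against that of each other tested probe of the gene (y axis), in 1 panel for RES 4W without replicate 1 against CON 4W and 1 for RES 1W against CON 1W. The dashed line marks equal change, and points lie on both sides of both zero lines for RES 4W, where 51.4% of genes had all probes of the same sign, and closer to the line for RES 1W, where 87.0% had.

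Whether the effect of restriction differed between the ages was tested by an interaction term, which passed at 111 probes (0.583%) with all arrays and at 2851 (15.0%) without replicate 1. Ddit4 rose by 1.04 ± 0.20 after 1 week and fell by 0.83 after 4 weeks, a difference of -1.87 (adjusted p = 0.0119). Its RES 4W arrays measured 7.87, 8.85, 8.56 and 8.73 against 9.30, 9.31 and 9.40, with replicate 1 the lowest. Il6ra, a receptor subunit for interleukin 6, differed by 0.29 ± 0.09 after 1 week and fell by 0.63 ± 0.10 after 4 weeks, with RES 4W at 5.03 to 5.19 and CON 4W at 5.59 to 5.91 (difference -0.92, adjusted p = 0.00744). Its other probe, near the lower end of detection, gave 0.06 ± 0.15 after 4 weeks. G6pc3, a glucose-6-phosphatase found in most tissues, rose by 1.00 ± 0.16 after 4 weeks and differed by -0.20 ± 0.15 after 1 week (difference 1.20, adjusted p = 0.0281). Fn1 differed between the ages by 1.24 (adjusted p = 0.0376).

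For the genes shared by all 4 arrays the answer often depended on replicate 1. In neither fit did a difference between the ages pass for Slc6a12 (-0.42, adjusted p = 0.183), Fst (0.07, adjusted p = 0.911), Id3 (-0.24, adjusted p = 0.561) or Car15 (-0.15, adjusted p = 0.696). Each of these passed at both ages in the same direction. Other shared genes did not pass with all arrays but passed without replicate 1. Among them were Irx1 (adjusted p = 0.0125), Afap1l1 (0.0354), Esm1 (0.0125), Oasl2 (0.00719), Cc2d2a (0.0135), Vav2 (0.00379) and Slc5a2 (0.000555). Aqp2, which also passed at both ages, gave 0.64 (adjusted p = 0.321) with all arrays and passed without replicate 1 (adjusted p = 0.0111). Egr1 and Agt were called at 4 weeks and not at 1 week, but their differences between the ages, -1.98 (adjusted p = 0.0749) and 0.33 (adjusted p = 0.249), did not pass with all arrays. Without replicate 1 the difference passed for Egr1 (adjusted p = 0.017) and not for Agt (adjusted p = 0.155).

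The cells that a kidney sample can carry along were read by marker sums. That of 2 tested of 8 pancreas markers was 10.98 to 11.18 in CON 4W, 11.48 in replicate 1 and 11.24 to 11.34 in the others. All 4 RES 4W arrays were above CON 4W, neither marker was called in either fit, and the other 6 were not tested. The summed level of 4 tested of 10 adipose markers was 8.10 or above in CON 4W, 8.33 in replicate 1 and 7.54 to 8.02 in the others. That of 4 tested of 12 lymphocyte markers was 6.84 to 7.10 in CON 4W, 8.06 in replicate 1 and 6.95 to 7.31 in the others, and Cd4, Cd8a and Ptprc were not detected in enough arrays. Cd79b, 1 of the 4, was at 7.61 in replicate 1 and at 5.15 to 5.85 in the other arrays of its age. The median shift of replicate 1 from the CON 4W mean over the 4 markers was -0.055. The summed level of 4 tested of 8 red cell markers was 15.53 to 15.55 in CON 4W, 15.54 in replicate 1 and 15.21 to 15.72 in the others. None of these markers was called with all arrays, and 2 of the 4 adipose markers, Adipoq and Pck1, the last also a proximal tubule gene, were lower without replicate 1.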

How the data were processed

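Kidney RNA was read on 15 Illumina MouseWG-6 BeadChip arrays. Per the methods and the submitters' processing notes, the authors summarised the scans in GenomeStudio 1.0.2 and deposited linear intensity values. These were background-subtracted (34.9% at or below 0), and their distributions nearly coincide between arrays, as after quantile normalization. The authors deposited a detection p-value beside each. The authors also deposited log2 values of the same intensities, 52.2% of them missing, and these served as an alternative.

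Here neqc in limma 3.58.1 (R 4.3.3; normexp from detection p-values, offset 16, quantile normalization) was run on the intensities. A probe entered the test if 3 or more arrays detected it at p under 0.05. Means of the 4 groups over 15 arrays were fitted with lmFit and eBayes, and two-sided p-values were adjusted by Benjamini-Hochberg over 19027 probes. The fit was tested on simulated data. Of the tested probes 16351 had 1 symbol in the platform annotation (16332 matched to RefSeq, GRCm38.p6), 7 had several and 2669 none. A bound of a fold is given where a gene was not above background in a group. A marker sum is the log2 of summed linear levels. The number of arrays limits the precision.

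Genes were named by rule: the 8 largest rises and falls among called genes whose groups do not overlap, the 8 largest of each among genes called without replicate 1 whose replicate 1 lay within CON 4W, the genes the study names for 4 weeks, up to 2 called members of each list, and 9 water-balance and response genes. Others were named after their values were seen: Id1, Id2, Car15, Acot1, Acot3, Khdrbs1, Zbtb16, Ddit4, Hadhb, Slc25a20, Hnrnph1, Pnisr, Hnrnpa2b1, Slc5a8, Slc5a10, Slc6a20b, Slc8a1, Cyp2a5, Aqp1, Kap, Slc26a6, Prcp, Il6ra, Rnf183, G6pc3 and the list members given only by their change. A few list members are not reported here. The comparison and the lists (45 pathway and 17 marker lists) were chosen with earlier results of these data known. Alternatives changed the background correction, offset, scaling, values, filter, samples, weights, prior, replicate block, test and probes per gene, and left out each array in turn.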

Additional observations from a re-analysis of the deposited data

Results flagged for a closer look

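A single array stood far from the other RES 4W arrays in 28 of the 153 named genes. The measure is the gap from the extreme array to its nearest neighbour as a share of the range of the 4 arrays, set against Dixon's critical value, which chance passes in about 5% of groups. In 27 of the 28 genes the array was RES 4W replicate 1. Its shares were Acnat2 (0.944), Ddx5 (0.991), Rnf114 (0.837), Oasl2 (0.842), Gsn (0.932), Rbbp7 (0.924), Hnrnpk (0.945), Golga7 (0.83), Eif5a (0.906), Ctsa (0.869), Bhlhe40 (0.922), Chst7 (0.935), Itgb5 (0.911), Ctnnb1 (0.916), Actn4 (0.865), Atf4 (0.846), Cdkn1b (0.882), Mdh2 (0.935), Pfkp (0.935), Eef2 (0.905), Msmo1 (0.912), Pck1 (0.942), Hadhb (0.899), Capzb (0.91), Aqp1 (0.882), Plat (0.858) and G6pc3 (0.889). The remaining gene was Havcr1, an injury marker, where RES 4W replicate 2, at 4.66, was the lowest array (0.95). Some of these genes were named because replicate 1 differed from replicates 2 to 4, so the count does not estimate how common such gaps are.

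The effect of restriction differed between the ages, by the interaction term, in 9 named genes. The effect after 4 weeks minus that after 1 week was 1.54 log2 units for Rnf114, 1.24 for Fn1, 1.17 for Rnf183 and 1.20 for G6pc3. It was -1.44 for Pck1, -1.87 for Ddit4, -1.02 for Cyp2a5, -0.81 for Aqp1 and -0.92 for Il6ra. Pck1, a gluconeogenic enzyme, rose by 0.91 ± 0.20 after 1 week and differed by -0.53 ± 0.21 after 4 weeks, when replicate 1 was at 7.26, within the CON 4W range of 6.90 to 7.71, and replicates 2 to 4 were at 6.73 to 6.76. Rnf114, a ubiquitin ligase, measured 5.73 to 6.16 in CON 4W, 6.35 in replicate 1 and 7.46 to 7.68 in the others, and its other probe rose by 1.07.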

How the results depend on the processing

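The count of 1235 probes was 5129 (2711 higher, 2418 lower) with array weights, 510 (284 and 226) with no filter, 400 (232 and 168) in the methods' ANOVA, 0 (0 and 0; 2994 unadjusted) in the methods' t-test, and 3 (3 and 0; 3961 unadjusted) on the 7 arrays alone, where Slc6a12, Fst and the second Khdrbs1 probe passed. With the replicate block it was 819 (324 lower). Deviations from the group means correlated at 0.0102, -0.0851 and -0.0359 between same-numbered CON 4W and RES 4W arrays. These values show no pairing by number, but with so few arrays they cannot exclude one. Leaving out 1 array gave 165 (without RES 4W replicate 4) to 4576 (without RES 4W replicate 1), 105 to 2434 higher and 60 to 2142 lower. It gave 184 and 198 without RES 4W replicates 2 and 3, and 346, 429 and 285 without CON 4W replicates 1, 2 and 3. Without replicate 1 the t-test called 2235 (1146 higher, 1089 lower). The 70 probes at an adjusted p under 0.01 and a fold over 1.5 became 32 with log2 plus 16, 130 with offset 50, 39 with median scaling, 28 with the authors' values, 22 with no filter, 134 with the stricter filter, 1981 with weights, 219 with the trended robust prior, 22 with the replicate block, 11 in the ANOVA, 0 in the t-test, 0 on the 7 arrays and 8 to 1954 leaving out 1 array. The 111 interaction probes became 268 with offset 50, 53 with the authors' values, 27 with no filter, 288 with the stricter filter, 2878 with weights, 309 with the trended robust prior, 23 in the ANOVA and 16 to 2851 leaving out 1 array. Of 153 named genes, 4 changed sign under some setting. Itgb6 turned to -0.00 with weights, -0.005 without RES 4W replicate 1 and -0.11 as the mean of its probes. Iqgap1 turned to -0.26 as that mean, and to -0.004, -0.028 and -0.001 without CON 4W replicate 2, CON 4W replicate 3 and RES 4W replicate 1. As the mean of their probes Gins2 was 0.23 and Aass -0.085. Leaving out 1 array, Itgb6 was at most 0.21 and Iqgap1 at most 0.098. The causes were not tested.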

Other observations

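RES 4W replicate 1 was higher than all 6 other arrays of its age by at least 1 log2 unit at 26 probes and lower by as much at 0. The counts for the other 6 arrays were 0 to 7 higher and 0 to 2 lower. Most of these probes were dim in the other arrays. Among the bright ones was Cyp4a14 (11.40 against 7.49 to 9.59). Cyp24a1, the enzyme that breaks down active vitamin D, was at 9.97 in replicate 1, at 8.31 to 8.92 in CON 4W and at 7.05 to 8.54 in RES 4W replicates 2 to 4. Cd79b, a B cell receptor subunit, was at 7.61 in replicate 1 and at 5.15 to 5.85 in the other 6 arrays. Gtsf1 was at 7.18 against 4.33 to 4.84, and Ube2ql1 at 7.42 against 4.54 to 5.01.

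Further genes kept their call in every fit that left out 1 array. Nupr1, a stress-induced chromatin protein, rose from between 9.15 and 9.26 to 9.84 in replicate 1 and 10.07 to 10.13 in the others (log2 0.81 ± 0.15). Plat, tissue plasminogen activator, rose by 0.77 ± 0.14 and Defb42, a beta-defensin, by 1.27 ± 0.17. Abcc5, an exporter of cyclic nucleotides, rose from between 8.46 and 8.49 to between 8.98 and 9.30. Rarres2, chemerin, rose by 0.85 ± 0.14, but its other probes differed by -0.03 and -0.15. Ppargc1b, a coactivator of mitochondrial gene expression, fell from between 9.44 and 9.78 to 9.13 in replicate 1 and 8.56 to 8.87 in the others. Itga4, an integrin of leukocytes, fell by 0.87 ± 0.17. These genes were chosen after their values were seen.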
